A study of Mus musculus with 24 samples.

Results

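Transcripts of 9 genes of taurine synthesis and sulfur amino acid metabolism (Csad, Cdo1, Slc6a6, Mat1a, Ahcy, Cbs, Cth, Bhmt and Gnmt) were followed among 24319 genes in mouse liver. The 9 were taken from the pathway by name, and Csad was chosen by its measured change with loss of Shp2. The values of Csad in any comparison between genotypes that differ in Shp2 are therefore given as a description, without a test. All 9 genes were tested by the authors in every comparison.

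RNA came from 24 samples of 2-month-old male mice, 3 per group in 8 groups, from whole liver or from isolated hepatocytes. The 4 genotypes were wild-type C57/BL6 (WT), Alb-Cre+;IkkBf/f (IkkB KO), Alb-Cre+;Shp2f/f (Shp2 KO) and Alb-Cre+;IkkBf/f;Shp2f/f (Double KO). Cre recombinase under the albumin promoter deletes floxed genes chiefly in hepatocytes. Most other liver cells are taken to keep both genes, which was not measured here for any cell type, bile duct cells included. The labels name no control that carries Cre alone. Ptpn11 codes for Shp2, a phosphatase needed for growth factor signalling through Ras and Erk. Ikbkb codes for IkkB, a kinase that activates NF-κB. The deposited tables hold 1 value per gene and genotype, so no SD can be given and depth is unknown. Values are read as FPKM, scaled for transcript length, after the convention of the Cuffdiff program. Error between the 3 biological replicates enters only through the q-value that Cuffdiff gave, from the authors' deposited table, and a gene is said to have risen or fallen where it was under 0.05. Every q below is that value.

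Both deletions could be read in the targeted transcripts. In liver, WT had 12.5 for Ptpn11 and Shp2 KO 4.09, against 16.3 and 4.46 in hepatocytes. For Ikbkb, WT liver had 15.7 and IkkB KO 9.48, against 17.3 and 7.16 in hepatocytes. Double KO had 6.09 for Ptpn11 and 6.31 for Ikbkb in liver, against 5.77 and 5.29 in hepatocytes. In liver, Double KO was thus higher than Shp2 KO for Ptpn11 (q = 0.0226 in the authors' deposited table) and lower than IkkB KO for Ikbkb (q = 0.0188). In hepatocytes neither of these 2 differences passed (q = 0.213 and 0.135). The hepatocyte regulator Hnf4a lay between 157 and 201 in liver and between 165 and 194 in hepatocytes. The secreted hepatocyte protein Ttr was at 9726 in WT, 7357 in Shp2 KO and 5731 in Double KO liver, and at 8481 in WT and 4469 in Shp2 KO hepatocytes, and did not pass in any of these comparisons with WT. By contrast, Tat was at 658 in WT, 980 in Shp2 KO and 937 in Double KO liver. Pck1 was at 1020, 1439 and 1316 in these genotypes. In hepatocytes Tat was at 1028, 1082 and 853, and Pck1 at 1951, 1523 and 1482. In liver Apob lay between 195 and 232, and Cps1 between 574 and 640. In the hepatocyte list, 0 of 6 tested markers passed in each knockout against WT in liver (0 at an unadjusted p under 0.05 in the Cuffdiff test). In Shp2 KO hepatocytes 1 of 7 fell, Apoa1, with a list median of -0.36, and in Double KO hepatocytes the median was -0.27 with 0 of 7 past the threshold (1 at an unadjusted p under 0.05). Serpina1c, also a hepatocyte gene, was listed at 0 in every genotype, as was Apoa1 in some, with the status Cuffdiff gives where a gene has too many reads to be estimated. Markers of other cells differed between genotypes. The summed value of 8 macrophage markers was 163, 217, 225 and 432 in liver, in the order WT, IkkB KO, Shp2 KO, Double KO, which every run of 4 expression values below follows. In the hepatocyte preparations it was 63.7, 197, 159 and 197, so the knockout preparations carried more macrophage transcripts than the WT ones. In bulk RNA, more cells of a type and more RNA per cell cannot be told apart.

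Sulfur amino acid metabolism in hepatocytes starts with methionine. It is activated to S-adenosylmethionine, used for methylation, and returned as homocysteine, which is either methylated back to methionine or passed through transsulfuration to cysteine. Cysteine is a building block of glutathione, or is oxidised and decarboxylated to hypotaurine and then taurine. In mice, taurine is the main partner in bile acid conjugation, and Csad is known as a gene that bile acid signalling represses.

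Promoter windows of Csad and Bhmt are shown because these are the members, among those with an entry in the RefSeq promoter table (GRCm38.p6), that had their clearest differences in Shp2 KO liver. Windows of 300 bases, from 250 before to 50 after a transcript start, were read for 5 of the 9 genes (Ahcy, Bhmt, Cbs, Csad and Gnmt, 6 windows). Capitals mark AGGTCA, the half-site of many nuclear receptors, on either strand, and CAAGGTCA, its extended form bound by Nr5a2, which contains AGGTCA. All are minus-strand genes and are written 5′ to 3′ along the gene.
Csad, upstream start, chr15:102205003-102205302: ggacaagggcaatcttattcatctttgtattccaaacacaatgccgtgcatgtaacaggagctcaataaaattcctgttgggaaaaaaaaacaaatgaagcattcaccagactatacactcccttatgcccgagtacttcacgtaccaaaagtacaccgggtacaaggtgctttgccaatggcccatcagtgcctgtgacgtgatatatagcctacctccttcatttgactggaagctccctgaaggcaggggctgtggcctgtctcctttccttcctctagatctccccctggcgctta
Csad, downstream start, chr15:102188994-102189293: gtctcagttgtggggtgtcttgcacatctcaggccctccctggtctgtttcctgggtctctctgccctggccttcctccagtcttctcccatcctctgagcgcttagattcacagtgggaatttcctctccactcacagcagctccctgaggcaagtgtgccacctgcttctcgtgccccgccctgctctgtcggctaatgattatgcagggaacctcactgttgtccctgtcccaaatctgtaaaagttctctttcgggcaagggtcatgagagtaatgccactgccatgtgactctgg
Bhmt, chr13:93637709-93638008: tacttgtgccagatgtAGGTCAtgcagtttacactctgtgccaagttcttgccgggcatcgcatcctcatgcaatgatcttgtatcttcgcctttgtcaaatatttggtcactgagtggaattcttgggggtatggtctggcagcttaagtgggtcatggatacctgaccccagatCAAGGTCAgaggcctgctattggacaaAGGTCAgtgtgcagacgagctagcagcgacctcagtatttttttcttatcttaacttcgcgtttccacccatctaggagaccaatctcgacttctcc

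CAAGGTCA occurred 1 time in the Bhmt window and AGGTCA 3 times, that match included. Neither window of Csad held either motif. Across 32851 windows of the same table, 1.56% held CAAGGTCA and 16.3% held AGGTCA. Ahcy and Gnmt each held 1 AGGTCA. The E-box CACGTG, present in 7.15% of all windows, was found in the window of Cbs only among the 6. The amino acid response motif TGATGNAAN (3.95% of all windows) and the antioxidant response motif TGACNNNGC (12.4%) were in none of the 6. Both strands were searched for each motif, and a match is a description of the letters in the window, not of binding.

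Csad, cysteine sulfinic acid decarboxylase, makes hypotaurine from cysteine sulfinic acid. WT liver had a Csad value of 74.4, IkkB KO 86.4, Shp2 KO 749 and Double KO 520.5. WT hepatocytes had 45.0, IkkB KO 38.8, Shp2 KO 544 and Double KO 711. Both genotypes without Shp2 were high and both with Shp2 were low, in each table. Shp2 KO was 10.1 times WT in liver and 12.1 times WT in hepatocytes, and Double KO 6.99 times and 15.8 times. These values chose the gene and are given without a test.

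The change that chose Csad was not the step from WT to IkkB KO, or from Shp2 KO to Double KO. Each step still holds values that the choice rested on, so the q-values of Csad given here are not independent of that choice. By design IkkB alone is deleted in each step, but the first also adds Cre, which the WT label does not name. In the second, liver Ptpn11 was 6.09 in Double KO and 4.09 in Shp2 KO (q = 0.0226 in the authors' deposited table). Csad did not pass in IkkB KO liver (log2 difference 0.21, q = 0.634 in the authors' deposited table) or IkkB KO hepatocytes (-0.21, q = 0.545). Double KO against Shp2 KO gave -0.52 in liver (q = 0.250) and 0.39 in hepatocytes (q = 0.411), again short of the threshold. Log2 differences here and below are of log2(value + 1). On the opposite strand, Csad overlaps Zfp740 in the GENCODE annotation, and strand was not stated for these counts; Zfp740 reached at most 10.7 in liver and 9.91 in hepatocytes.

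**Figure D1:**
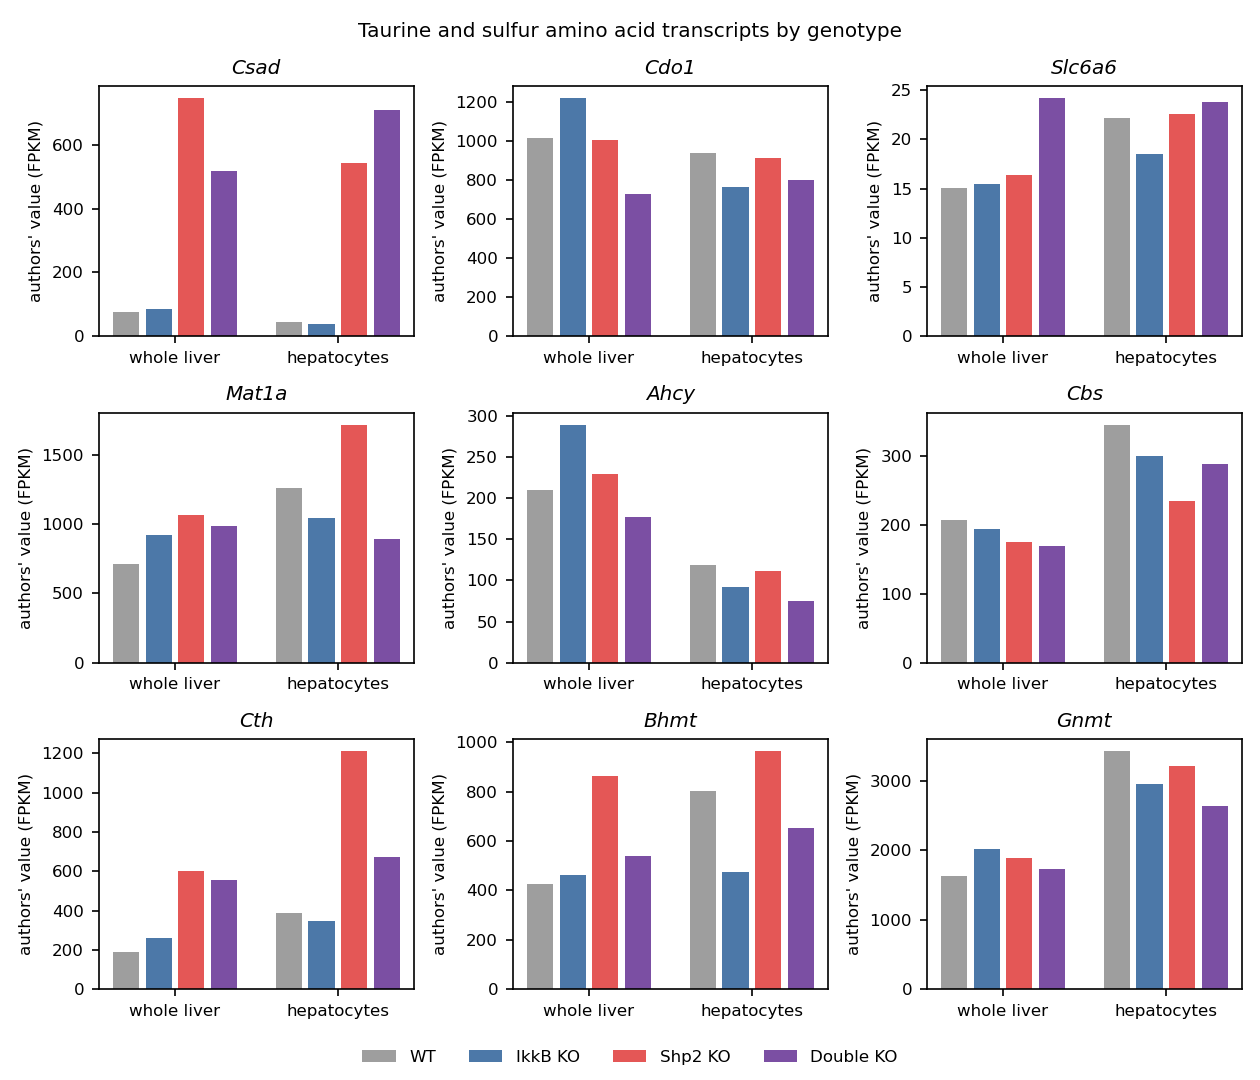
Value of each of the 9 transcripts (authors' value, read as FPKM, linear axis from 0) by genotype, in whole liver and in isolated hepatocytes, with 1 pooled value of 3 samples per bar and no error bar since the tables hold none. Csad and Cth are high in Shp2 KO and Double KO in both tables, and Slc6a6 is highest in Double KO liver within its table. The tables were made separately, so bars are compared within a table.

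Cdo1, cysteine dioxygenase, makes the cysteine sulfinic acid that Csad uses. Its value in liver was 1012, 1220, 1006 and 730.0, and in hepatocytes 939, 765, 913 and 798. Cdo1 did not pass in any comparison in the authors' deposited table; its lowest q was 0.067, for Double KO against IkkB KO in liver, and with p-values adjusted within that comparison it passed (adjusted p = 0.042). Since Csad was high without Shp2, the ratio of the Cdo1 value to the Csad value was 13.6 for WT and 1.34 for Shp2 KO liver, and 20.9 and 1.68 in hepatocytes. In Double KO it was 1.40 in liver and 1.12 in hepatocytes. This ratio is a description, as it contains the Csad values.

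Slc6a6 encodes the taurine transporter TauT, which imports taurine and is present in many cell types. WT liver had a value of 15.1, IkkB KO 15.5, Shp2 KO 16.4 and Double KO 24.2. Double KO liver stood above the other 3 genotypes. The log2 difference was 0.65 against WT (q = 0.0062 in the authors' deposited table), 0.61 against IkkB KO (q = 0.0114) and 0.54 against Shp2 KO (q = 0.0289). In hepatocytes the values were 22.2, 18.5, 22.6 and 23.8, and no comparison passed (q from 0.233 to 0.958). The difference between liver and hepatocytes was not tested.

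Markers of other cells moved with Slc6a6 in Double KO liver. Against WT, 8 of 8 macrophage markers were higher there, Adgre1 for example at 9.59 against 2.89. The summed value of 7 stellate cell and fibroblast markers was 156 in Double KO against 77.3 in WT liver, and 4 of the 7 passed, all higher. The sum of 6 bile duct markers was 143 against 57.4, of which Spp1 alone was 137 and 52.5. Of 5 tested bile duct markers, 1 passed, and it was higher. Summed endothelial markers were 72.2 against 72.8, of which Clec4g alone was 43.8 and 46.1. Of 7 tested endothelial markers, 1 passed, and it was higher. In hepatocyte preparations the macrophage sum was also 197 in Double KO against 63.7 in WT, beside Slc6a6 values of 23.8 and 22.2. The part of these cells in the Slc6a6 result was not tested.

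Cth, cystathionine gamma-lyase, forms cysteine in the last step of transsulfuration. WT liver had a Cth value of 190, IkkB KO 259, Shp2 KO 603 and Double KO 557. WT hepatocytes had 387, IkkB KO 347, Shp2 KO 1212 and Double KO 675. The 2 genotypes without Shp2 were the highest in each table. Cth rose 3.18-fold in Shp2 KO liver and 2.94-fold in Double KO liver (q = 0.000955 each in the authors' deposited table, its smallest value). In hepatocytes it rose 3.13-fold in Shp2 KO (q = 0.00048) and 1.74-fold in Double KO (q = 0.0103). Of 8 macrophage markers, 3 were higher in Shp2 KO liver and 7 in Shp2 KO hepatocyte preparations than in WT, and their part in the Cth result was not tested.

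The knockouts were also compared with each other. In liver, Double KO was above IkkB KO by 1.11 on the log2 scale (q = 0.000955 in the authors' deposited table) and differed from Shp2 KO by -0.11 (q = 0.895). Shp2 KO liver was above IkkB KO liver by 1.22 (q = 0.000955). In hepatocytes, Double KO was above IkkB KO by 0.96 (q = 0.0035). There, Double KO also lay below Shp2 KO by 0.84 on the log2 scale, with q = 0.0498 in the authors' deposited table. It did not pass when the authors' Cuffdiff p-values were adjusted within that comparison (adjusted p = 0.182). IkkB KO against WT did not pass for Cth in liver (0.44, q = 0.178) or hepatocytes (-0.16, q = 0.744).

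Cbs, cystathionine beta-synthase, catalyses the step before Cth. Its value was 207, 194, 175 and 169 in liver, and 346, 301, 235 and 289 in hepatocytes. WT was the highest in each table, and no comparison passed; the lowest q in the authors' deposited table was 0.099, for Shp2 KO against WT hepatocytes (log2 difference -0.56). The 2 enzymes of transsulfuration differed in their calls in Shp2 KO: Cth passed in both tables and Cbs in neither, and the difference between the 2 genes was not tested.

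In the methionine cycle, Mat1a makes S-adenosylmethionine in adult liver. Its values were 711, 923, 1066 and 983 in liver, and 1263, 1041, 1718 and 889 in hepatocytes. No comparison passed. The largest difference was that of Double KO from Shp2 KO hepatocytes, -0.95, with q = 0.141 in the authors' deposited table (unadjusted p = 0.0457).

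Gnmt, glycine N-methyltransferase, uses up S-adenosylmethionine in excess and had the highest level per length of the 9 in every genotype. Its values ran from 1624 to 2011 in liver and from 2640 to 3425 in hepatocytes, and q was from 0.483 to 0.941 in the authors' deposited table.

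Ahcy, adenosylhomocysteinase, turns S-adenosylhomocysteine into homocysteine. Its value in liver was 210, 290, 229 and 177, and in hepatocytes 119, 92.5, 112 and 75.5. Double KO was the lowest genotype in each table. In liver, Ahcy was lower in Double KO than in IkkB KO (log2 difference -0.71, q = 0.025 in the authors' deposited table) but not past the threshold against WT (-0.25, q = 0.618). In Double KO hepatocytes it fell against WT (-0.64, q = 0.0183) and was lower than in Shp2 KO (-0.56, q = 0.0437). The last of these did not pass when the authors' Cuffdiff p-values were adjusted within that comparison (adjusted p = 0.163). In Double KO hepatocyte preparations 8 of 8 macrophage, 6 of 7 endothelial and 5 of 7 stellate markers were higher than in WT, and the part of this in the Ahcy result was not tested.

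Bhmt, betaine-homocysteine methyltransferase, regenerates methionine from homocysteine with betaine from choline. WT liver had a Bhmt value of 425, IkkB KO 463, Shp2 KO 864 and Double KO 541. Bhmt rose 2.03-fold in Shp2 KO against WT (q = 0.000955 in the authors' deposited table), and was 0.90 higher on the log2 scale than in IkkB KO (q = 0.0114). Double KO did not pass against WT (0.35, q = 0.596) or against Shp2 KO (-0.67, q = 0.193). In hepatocytes the values were 804, 475, 964 and 654, and none passed. IkkB KO against WT came closest (-0.76, q = 0.0519). Macrophage, endothelial and stellate markers were higher in those IkkB KO preparations than in WT, and their part in the Bhmt value was not tested. Bhmt2, a neighbouring paralog, was 93.4, 109, 108 and 87.4 in liver, and reads from stretches that both genes share can be assigned to either.

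**Figure D2:**
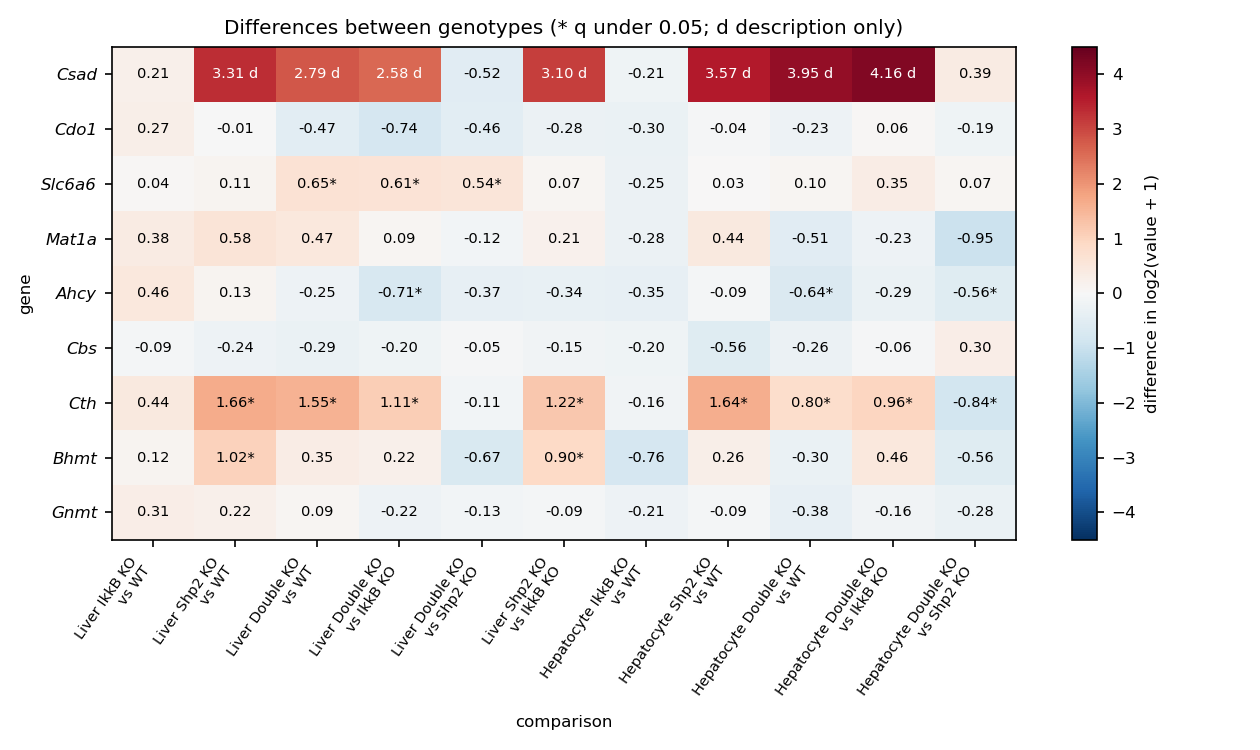
Difference in log2(value + 1) of the 9 transcripts (rows) in the 11 comparisons of the 2 tables (columns), with the colour and the number giving the difference; * marks q under 0.05 in the authors' deposited table and d marks Csad values that are a description. Csad runs from 2.58 to 4.16 where the genotypes differ in Shp2, and Cth is marked in each of those comparisons.

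The counts are read against all genes tested. In IkkB KO against WT, 0 of 9 members passed in the Cuffdiff test in liver, where 4.54% of all tested genes passed, and 2 members had an unadjusted p under 0.05. In hepatocytes 0 of 9 passed (9.41% of all genes), and 1 had an unadjusted p under 0.05. The median log2 difference of the 9 was 0.27 in liver and -0.25 in hepatocytes, against -0.01 and 0.00 over all tested genes. In IkkB KO hepatocyte preparations 8 of 8 macrophage, 7 of 7 endothelial and 7 of 7 stellate markers were higher than in WT. Their part in the hepatocyte median was not tested.

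In Shp2 KO against WT, 2 of the 8 members other than Csad rose in liver (9.33% of all tested genes passed in either direction), which were Cth and Bhmt. In hepatocytes 1 of 8 rose (11.7%), which was Cth. In Double KO against WT, 2 of 8 rose in liver (18.1%), and in hepatocytes 1 rose and 1 fell (13.6%). The median of the 8 was 0.17 in Shp2 KO liver, 0.22 in Double KO liver, -0.01 in Shp2 KO hepatocytes and -0.28 in Double KO hepatocytes; over all tested genes it was -0.03, -0.03, -0.01 and 0.01.

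Between knockouts, 3 of 8 members passed in Double KO against IkkB KO liver (19.0% of all tested genes) and 1 of 8 in hepatocytes (11.4%). In Double KO against Shp2 KO, 1 of 9 passed in liver (10.8%) and 2 of 9 in hepatocytes (6.76%). Shp2 KO against IkkB KO, held by the liver table alone, had 2 of 8 past the threshold (10.3%). With so few members, the shares are given without a test.

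The order of the levels, per transcript length, placed Csad eighth of the 9 in WT and IkkB KO, above Slc6a6 alone, in both tables. With Shp2 deleted it ranked 5 in Shp2 KO liver, 6 in Double KO liver, 6 in Shp2 KO hepatocytes and 4 in Double KO hepatocytes. Without values per sample, neighbours in this order, such as Ahcy at 210 and Cbs at 207 in WT liver, cannot be separated by their spread.

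Other genes of the pathway were taken from 3 lists. The taurine list holds 10 genes of production, conjugation and transport, of which 8 were tested; Gadl1 and Gad1, decarboxylases that can act on cysteine sulfinic acid, were at or near 0. In liver, Fmo1, which can oxidise hypotaurine to taurine, rose from 71.9 to 113 in IkkB KO (q = 0.0148 in the authors' deposited table) and to 114 in Shp2 KO (q = 0.0104). In hepatocytes it rose from 72.5 to 108 in Shp2 KO (q = 0.038). In Shp2 KO liver, Slc16a6, a carrier related to monocarboxylate transporters, fell from 2.97 to 1.10 (q = 0.0325). Slc36a1, a proton-coupled amino acid carrier, fell from 10.5 to 7.19 (q = 0.0369).

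Of the 8 tested taurine genes, 1 passed in IkkB KO liver (4.54% of all tested genes), 3 in Shp2 KO liver (1 higher, 2 lower, against 9.33%) and 1 in Shp2 KO hepatocytes (11.7%). In the Cuffdiff test 0 passed in Double KO liver (3 at an unadjusted p under 0.05), in Double KO hepatocytes (1) and in IkkB KO hepatocytes (0). List medians lay between -0.18 and 0.11. Baat, which joins bile acids to taurine, was 138, 141, 166 and 120 in liver. The taurine and GABA carrier Slc6a13 was 141, 132, 166 and 152 there. Neither passed against WT in either table.

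Genes around the methionine cycle went both ways. Gamt, which uses S-adenosylmethionine to make creatine, fell in both genotypes without Shp2: in liver from 292 to 191 in Shp2 KO (q = 0.0242 in the authors' deposited table) and to 126 in Double KO (q = 0.000955). In hepatocytes Gamt fell from 211 to 140 (q = 0.0242) and to 119 (q = 0.0013). Nnmt, which methylates nicotinamide, rose by 1.30 on the log2 scale, to 372, in Double KO liver (q = 0.000955), where the macrophage and stellate markers given above were also higher; their part in it was not tested.

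Chdh, the first enzyme from choline to betaine, rose from 32.8 to 51.0 in Shp2 KO liver (q = 0.027 in the authors' deposited table) and from 41.8 to 67.7 in Double KO hepatocytes (q = 0.0158). Mat2a, the S-adenosylmethionine synthetase of most other tissues, rose from 20.9 to 35.2 in Shp2 KO hepatocytes (q = 0.0016). In liver Mat2a was 34.1 in WT and 33.1 in Shp2 KO, and did not pass. In Shp2 KO hepatocyte preparations 7 of 8 macrophage markers were higher than in WT, and their part in the Mat2a result was not tested. Ahcyl2, a relative of Ahcy, fell from 5.83 to 3.03 in IkkB KO liver (q = 0.000955) and to 3.55 in Double KO liver (q = 0.005). Shmt1, a serine hydroxymethyltransferase, fell from 115 to 71.4 in Double KO hepatocytes (q = 0.0055). Of 22 tested genes in this list, 1 passed in IkkB KO liver (lower), 3 in Shp2 KO liver (2 higher, 1 lower) and 6 in Double KO liver (2 higher, 4 lower), against 4.54%, 9.33% and 18.1% of all tested genes. In hepatocytes 0 passed in IkkB KO in the Cuffdiff test (1 at an unadjusted p under 0.05), 2 in Shp2 KO (1 higher, 1 lower) and 4 in Double KO (2 higher, 2 lower), against 9.41%, 11.7% and 13.6% of all tested genes. Medians lay between -0.11 and 0.11.

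In the list of cysteine disposal and glutathione, the 2 subunits of glutamate-cysteine ligase moved in opposite directions in Shp2 KO. The catalytic subunit Gclc fell in Shp2 KO from 62.5 to 34.8 in liver (q = 0.000955 in the authors' deposited table) and from 74.4 to 41.9 in hepatocytes (q = 0.0013). The modifier subunit Gclm rose in Shp2 KO from 75.8 to 118 in liver (q = 0.0157) and from 76.5 to 116 in hepatocytes (q = 0.0232). In Double KO liver Gclc was 35.7 (q = 0.0032) and Gclm 125 (q = 0.0038). In Double KO hepatocytes Gclm rose to 115 (q = 0.0236), whereas Gclc was 62.8 and did not pass.

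Suox, which oxidises sulfite to sulfate, rose from 52.7 to 84.7 in Shp2 KO liver (q = 0.0032 in the authors' deposited table). Got1, a transaminase that can act on cysteine sulfinic acid, rose in liver from 159 to 250 in IkkB KO (q = 0.0296) and to 274 in Shp2 KO (q = 0.0114), and fell in Double KO hepatocytes from 355 to 221 (q = 0.0261). Gsr, glutathione reductase, rose from 26.9 to 43.8 in Double KO hepatocytes (q = 0.0053). Of 13 tested genes, 1 rose in IkkB KO liver, 4 rose and 1 fell in Shp2 KO liver, and 1 rose and 1 fell in Double KO liver, against 4.54%, 9.33% and 18.1% of all tested genes. In hepatocytes 0 passed in IkkB KO in the Cuffdiff test (4 at an unadjusted p under 0.05), 1 rose and 1 fell in Shp2 KO, and 2 rose and 1 fell in Double KO, against 9.41%, 11.7% and 13.6%. Medians lay between -0.12 and 0.20.

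**Figure D3:**
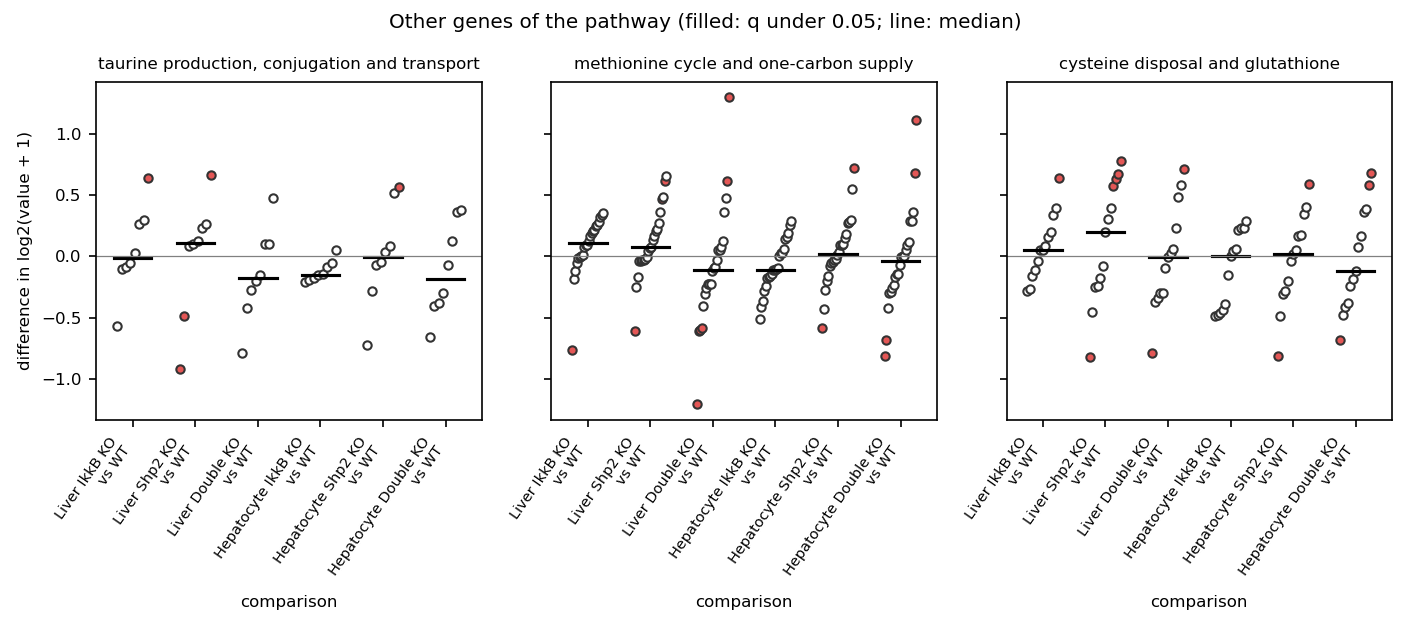
Difference in log2(value + 1) from WT of each tested gene in the 3 lists of other pathway genes (panels), by knockout and table (horizontal axis); filled points had q under 0.05 and the bar is the median of the list. Medians stay between -0.18 and 0.20, with single genes past the threshold on either side.

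Genes of bile acid synthesis were set beside Csad. Cyp7a1, which starts the classical route of bile acid synthesis, was 30.0, 48.6, 135 and 67.0 in liver, beside Csad values of 74.4, 86.4, 749 and 520.5. Cyp8b1, which sets the share of cholic acid, was 136, 202, 514 and 280 in liver. Nr0b2, a receptor that represses bile acid synthesis, was 39.6, 28.0, 7.32 and 14.9 there. Against WT, all 3 passed in Shp2 KO and Double KO liver (q at most 0.00175 in the authors' deposited table). Cyp7a1 also rose in IkkB KO liver (q = 0.0109), where Csad did not pass. Double KO liver differed from Shp2 KO liver in Cyp7a1 (-0.99, q = 0.000955), Cyp8b1 (-0.87, q = 0.017) and Nr0b2 (0.93, q = 0.000955). Csad did not pass in that comparison (q = 0.250). In hepatocytes none of the 3 passed between these genotypes (q from 0.0531 to 0.990). In hepatocytes Cyp7a1 was 24.6, 24.8, 97.0 and 96.5, Cyp8b1 192, 245, 290 and 395, and Nr0b2 55.9, 23.5, 22.0 and 14.2. Cyp8b1 did not pass in Shp2 KO hepatocytes (q = 0.0628), and Nr0b2 had already fallen in IkkB KO hepatocytes (q = 0.00048), where Csad did not pass.

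The genes nearest to Csad were found by the root mean square difference between their 6 log2 differences from WT (3 knockouts in 2 tables), among 10628 genes with a value of at least 1 in some genotype of both tables. They were Tmem98 (0.68), Cyp2c38 (0.70), H2-Q1 (0.74), Cd36 (0.78) and Serpina7 (0.90). In liver Tmem98, which encodes a membrane protein, was 4.26, 4.18, 25.7 and 34.5. Cd36, a fatty acid uptake protein, was 4.85, 4.15, 25.8 and 37.3, and Serpina7, a thyroxine carrier, 11.4, 8.18, 46.0 and 69.1. In IkkB KO liver the log2 difference from WT was 1.59 for Cyp2c38 and 1.06 for H2-Q1, and from -0.43 to -0.02 for the others. In IkkB KO hepatocytes it was 1.13 for H2-Q1 and 1.04 for Cd36, and from -0.06 to 0.27 for the others. The ranking is a description, as it rests on the Csad values. All 5 lay below Csad in level in each group without Shp2. With a pseudocount of 0.1, 2 of the 5 remained among the nearest. Cyp2c38 and H2-Q1 belong to families of similar genes, so reads may have been shared with copies.

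**Figure D4:**
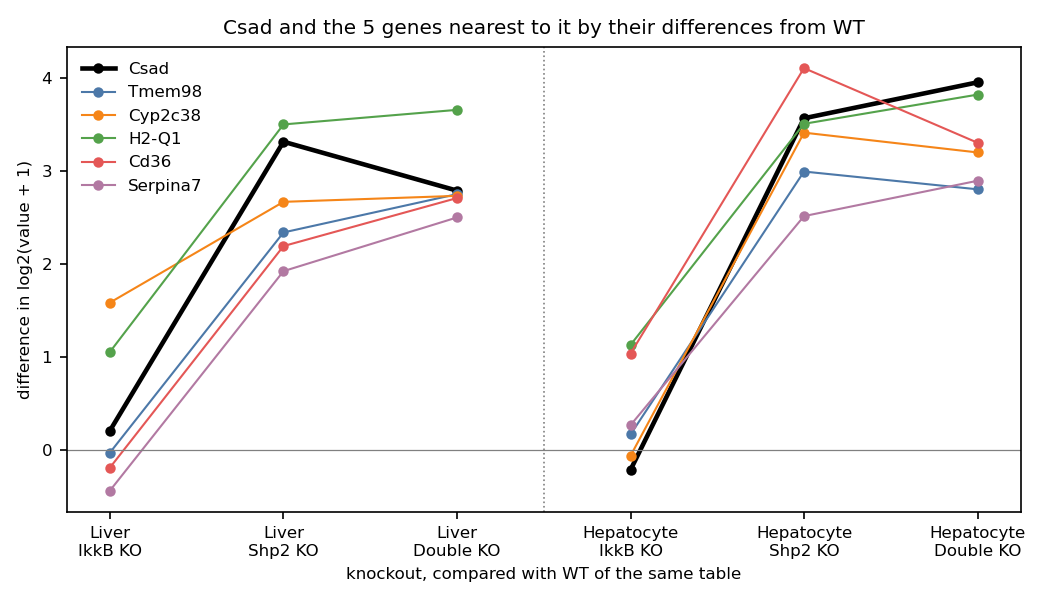
Difference in log2(value + 1) from WT of Csad (black) and the 5 genes nearest to it, for each knockout in whole liver (left of the dotted line) and hepatocytes (right). Csad is at 0.21 and -0.21 in IkkB KO and between 2.79 and 3.95 in the genotypes without Shp2.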

How the data were processed

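The authors deposited 1 Cuffdiff table for liver and 1 for hepatocytes, on the mouse build mm9, with FastQC and Cuffdiff named in the submitters' processing notes; for versions, aligner and annotation, nothing is given in these sources. RNA was polyA RNA in TruSeq v2 libraries, extracted with different kits from liver and from hepatocytes, per the labels' protocols. The deposited expression values, 1 per gene and genotype, have no unit in the header and are FPKM by convention. The log2 fold changes and the test statistic (a score) deposited by the authors were not used; differences were computed as log2(value + 1). The p-value and q-value are the authors' deposited Cuffdiff results. Liver q-values were recomputed from all pairs (largest difference 5.27e-07), whereas hepatocyte ones could not be (0.284). No counts or values per sample were used here, so depth and its precision are unknown.

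Genes were called at q under 0.05 among genes that Cuffdiff tested and whose larger value in the pair reached 0.1. Members, lists and rules were chosen with earlier results of these data known. Named were all 9 members, up to 4 passing genes per list against WT, 5 genes nearest to Csad, and set genes of bile acid synthesis. Of the list genes this rule names, 1 is left out of the text and stays in the counts. Marker lists were those of hepatocytes, macrophages, endothelial, stellate, bile duct and lymphoid cells; summed lymphocyte markers were at most 3.75. Shp2 KO against IkkB KO in liver was added after the tables were seen. The adjustment and likeness steps were tested on simulated data. Calculations used Python 3.11.15 with scipy 1.17.1, pandas 2.3.3 and numpy 2.4.6, and plots used matplotlib 3.10.9. Amd1 was left out, as it is joined to a copy in the liver table. Alternatives tried were a q-value under 0.01, adjustment within a comparison, other filters on low values, a minimum difference, a pseudocount of 0.1 and centring.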

Additional observations from a re-analysis of the deposited data

How the results depend on the processing

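Of the counts of members past the threshold, those that moved by over 1.5 times did so at a q-value under 0.01 or with p-values adjusted within a comparison. At a q-value under 0.01, the count was 0 for Double KO against WT hepatocytes (2 before), 0 for Double KO against Shp2 KO in hepatocytes (2 before) and in liver (1 before), 1 for Double KO against IkkB KO liver (3 before) and 1 for Shp2 KO against IkkB KO liver (2 before). Adjusted within the comparison, the count for Double KO against Shp2 KO hepatocytes was 0. No filter on low values, a minimum value of 1 and a minimum log2 difference of 0.5 left the member counts within 1.5 times. Cdo1 in Shp2 KO against WT liver changed sign when centred on the median of all tested genes, from -0.01 to 0.0196, and did not pass in either case. Of 33 counts over the other pathway lists, 18 moved by over 1.5 times at a q-value under 0.01, 7 with adjustment within a comparison and 1 with the minimum difference. No paired analysis was possible because the tables hold no values per replicate, and no replicate could be left out for the same reason. Without counts, what depth limits is unknown.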
